A study of Mus musculus with 9 samples.

Results

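The genes described are 10 factors and receptors of the melanocyte lineage, read from the gene tables by symbol: Mitf, Sox10, Pax3, Tfap2a, Tfe3 and Tfeb among the transcription factors, and Mc1r, Erbb3, Kit and Ednrb among the receptors. The list was set by name, with earlier results of these data known. All 10 have a row among the 21676 genes of the tables. Of these, 8 passed the filter on low counts and were tested, while Kit and Ednrb did not pass it. The libraries are of B16, a melanoma line of mouse origin kept in DMEM with serum, in 3 groups of 3 biological replicates: a derivative carrying the hairpin shAD4-1, a derivative carrying shAD4-2, and cells labelled with a control hairpin, called shControl here. The design text calls the first and second hairpin groups knockdown derivatives, and the series title names ADGRL4, an adhesion G protein-coupled receptor; Adgrl4 was not analysed here. Each hairpin is a single derivative line as far as the labels say, so p-values measure only the spread between these libraries. Levels are FPKM, which are reads scaled to gene length and library total. Differences are log2 fold changes with SE and Benjamini-Hochberg adjusted p from edgeR's quasi-likelihood test over 13807 genes, called at a threshold of 0.05.

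Melanocytes arise from the neural crest, where SOX10 and PAX3 together switch on the gene of MITF, the basic helix-loop-helix factor that directs pigment genes and melanocyte survival. TFE3 and TFEB belong to the same MiT/TFE family, bind similar E-box sequences and are best known for driving lysosome and autophagy genes when they enter the nucleus. On the cell surface, MC1R answers melanocortins through Gαs and cAMP, KIT and EDNRB receive stem cell factor and endothelin during melanoblast migration, and ERBB3 receives neuregulins as the kinase-impaired partner of ERBB2.

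Promoter sequences were matched in RefSeq for 7 of the 10 genes, at 14 start sites on build GRCm38.p6, which is another build than the authors' GRCm39. The windows of 250 bases before each start were searched on both strands for TGACGTCA, the cAMP response element (CRE), for the E-box CACGTG, for CATGTG, the core of the M-box bound by MITF, and for the SOX core ACAAAG. These letters were found at the most downstream of 3 Mitf start sites and at Mc1r, and at none of the other 12. In mice the most downstream Mitf start is that of the melanocyte form. The Mitf and Mc1r windows are shown because they carry these matches, and because Mc1r is the gene of the group with the largest difference from control. Both lie on the plus strand, Mitf at chr6:97991533-97991782 and Mc1r at chr8:123406832-123407081, and capitals mark the matched letters.
Mitf: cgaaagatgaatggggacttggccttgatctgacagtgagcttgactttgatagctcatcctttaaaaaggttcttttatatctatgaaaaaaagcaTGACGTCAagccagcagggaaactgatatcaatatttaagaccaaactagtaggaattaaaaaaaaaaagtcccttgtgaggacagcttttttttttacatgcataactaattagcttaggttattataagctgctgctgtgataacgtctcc
Mc1r: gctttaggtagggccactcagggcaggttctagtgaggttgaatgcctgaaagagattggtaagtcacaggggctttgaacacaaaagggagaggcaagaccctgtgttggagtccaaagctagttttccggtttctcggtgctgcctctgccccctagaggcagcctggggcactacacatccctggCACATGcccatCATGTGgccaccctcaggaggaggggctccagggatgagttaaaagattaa
In Mitf the CRE starts at position -153, counted back from the transcription start. In Mc1r the core CATGTG starts at -51 on the gene's strand, and its reverse complement CACATG starts at -62, without overlap between the matches. Of 32851 mouse promoter windows of this length, 1.55% hold TGACGTCA, 12.3% CATGTG, 6.02% CACGTG and 16.5% ACAAAG, on either strand. The share that holds any of these is not given here, so matches are not shown to be more frequent in the lineage windows. A match describes the letters and was not tested as a binding site.

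All 7 melanocyte markers (Pmel, Mlana, Tyr, Tyrp1, Dct, Slc45a2 and Gpr143) were at 1 CPM (reads scaled to library total) or more in each group. Their summed level was 9.73e+03 to 9.94e+03 CPM in shAD4-1, 1.05e+04 to 1.15e+04 CPM in shAD4-2 and 1.08e+04 to 1.25e+04 CPM in shControl libraries. Schwann cell markers, led by S100b and Mbp, summed to 307 to 315 CPM in shAD4-1, 229 to 235 CPM in shAD4-2 and 636 to 649 CPM in shControl libraries. The lower sums with the hairpins lie in Mbp, given below. Leukocyte markers, nearly all Lyz2, summed to 2.28 to 3.35 CPM in shAD4-1, 4.17 to 4.53 CPM in shAD4-2 and 0.107 to 0.311 CPM in shControl libraries, and their part in the results was not tested. Markers of fibroblasts summed to at most 14 CPM, of endothelium to at most 0.283 and of keratinocytes to at most 0.107 CPM in any library. RNA here is from bulk cultures, in which fewer cells of a type and less RNA per cell cannot be told apart. Library totals were 31.3 to 36.9 M reads, and shControl replicate 1 stood apart from the other controls, a difference that touches Mitf below.

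The lineage genes did not move as a block. Pax3 and Tfap2a were higher with both hairpins, while Mc1r, Erbb3, Tfe3 and Tfeb were lower with both. Sox10 and Mitf were lower with shAD4-1, and their smaller differences with shAD4-2 did not pass the test. With shAD4-1, 8 of 8 tested lineage genes were called, 2 higher and 6 lower, where 65% of all tested genes were called, 32.7% higher and 32.3% lower. With shAD4-2, 6 of 8 were called, 2 higher and 4 lower, where 69% of all tested genes were called, 34.2% higher and 34.8% lower. Changes were thus widespread in these libraries. The lineage count with shAD4-2 stood near that background, and with shAD4-1 it stood above it, through its lower genes. These are counts of 8 genes, and their difference from the background was not tested. The comparisons share the same control libraries. The median absolute log2 fold change over all tested genes was 0.34 for shAD4-1 and 0.38 for shAD4-2. As large a difference as that of Mc1r was seen in 6.11% of tested genes with shAD4-1 and in 8.78% with shAD4-2. For Pax3 this share was 18.2% with shAD4-1 and 13.2% with shAD4-2. For Sox10 it was 66.1% with shAD4-1 and 90.3% with shAD4-2.

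**Figure D1:**
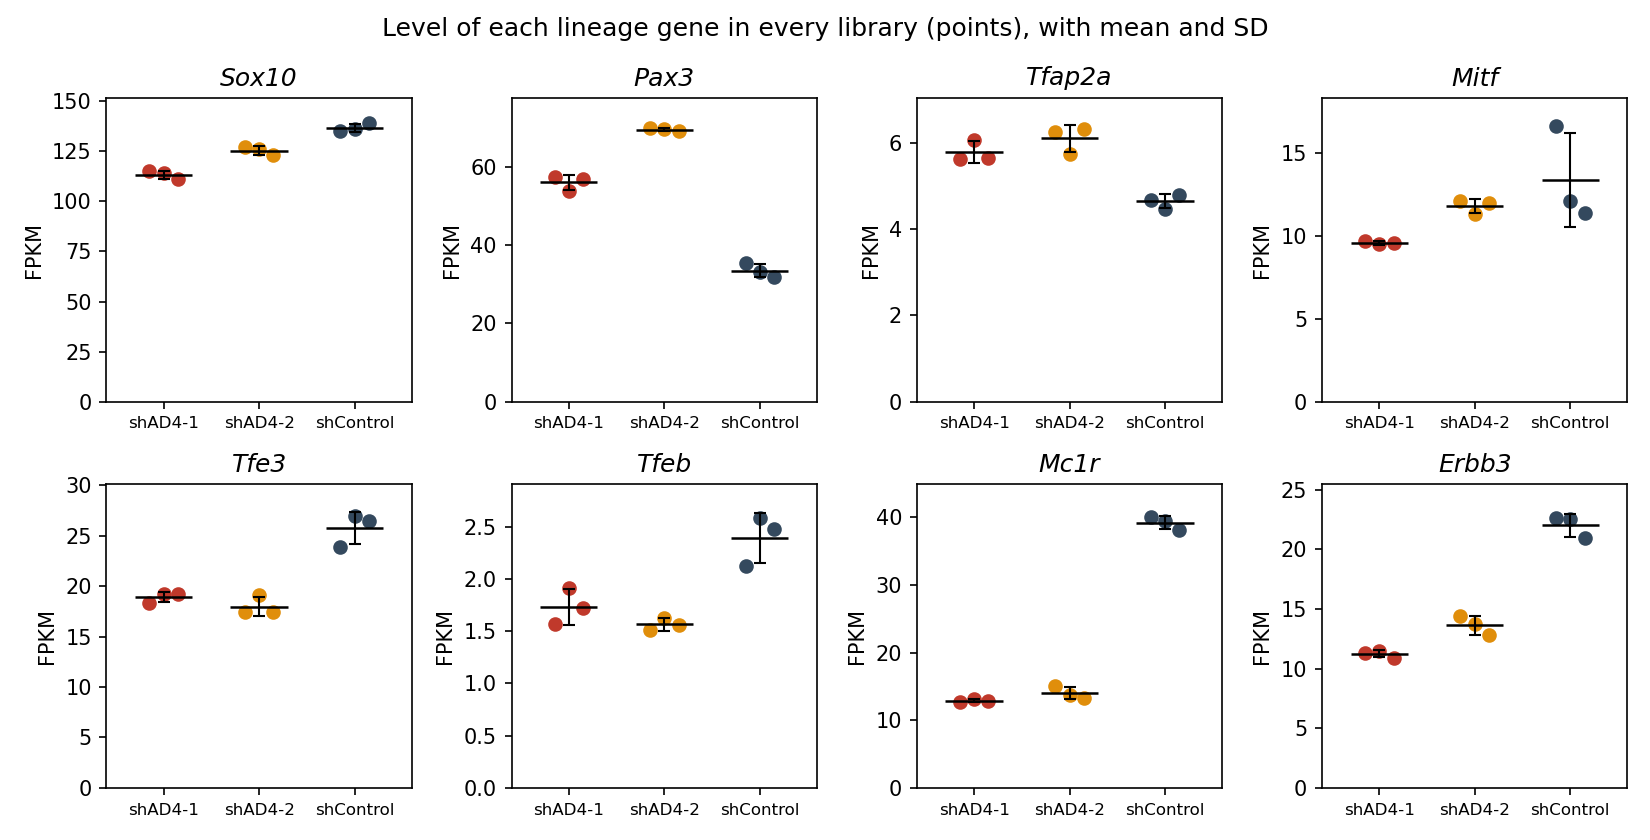
FPKM of the 8 tested lineage genes in each library (points), with the group mean (line) and SD (bars), n = 3 a group; each panel has its own axis from 0. Pax3 and Tfap2a sit higher in both hairpin groups than in shControl, Mc1r, Erbb3, Tfe3 and Tfeb sit lower, and 1 shControl library, at 16.6 FPKM, lies above the rest for Mitf.

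Sox10 encodes the neural crest factor that maintains melanocyte and glial identity, and it had the highest level of the 10 genes in every group. Sox10 was at 115, 114 and 111 FPKM in the shAD4-1 libraries, at 127, 126 and 123 FPKM in the shAD4-2 libraries, and at 135, 136 and 139 FPKM in the shControl libraries. The 3 groups did not overlap, with shControl highest and shAD4-1 lowest. Sox10 was 1.16-fold lower in shAD4-1 than in shControl (log2 fold change -0.21 ± 0.03, edgeR adjusted p = 2.98e-05). In shAD4-2 the difference from shControl was -0.07 ± 0.03 on the log2 scale and was not called by edgeR (adjusted p = 0.101). That small difference depended on scaling, since it was called with upper-quartile scaling in edgeR (-0.10, adjusted p = 0.0227) and by limma on log2(FPKM + 1) (-0.12, adjusted p = 0.00411).

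Pax3 encodes the paired-box factor that acts with SOX10 on the Mitf gene and holds melanoblasts in an undifferentiated, dividing state. It was at 57.4, 53.7 and 56.7 FPKM with shAD4-1, at 69.8, 69.5 and 69 FPKM with shAD4-2, and at 35.3, 33.1 and 31.9 FPKM in shControl. Every hairpin library lay above every control library, and every shAD4-2 library above every shAD4-1 library. The rise was 1.74-fold with shAD4-1 (log2 fold change 0.80 ± 0.04, edgeR adjusted p = 7.25e-12). With shAD4-2 it was 2.16-fold (1.11 ± 0.04, edgeR adjusted p = 6.03e-14). Pax3 was the only lineage gene called higher by more than 1.5-fold with either hairpin.

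Tfap2a encodes AP-2α, a neural crest factor that shares many melanocyte enhancers with MITF. Its level was 5.63, 6.07 and 5.64 FPKM in shAD4-1, 6.25, 5.74 and 6.31 FPKM in shAD4-2, and 4.68, 4.46 and 4.78 FPKM in shControl. The hairpin groups overlapped each other, and both lay wholly above shControl. Tfap2a rose 1.3-fold with shAD4-1 (log2 fold change 0.37 ± 0.06, edgeR adjusted p = 2.22e-05) and 1.37-fold with shAD4-2 (0.45 ± 0.06, edgeR adjusted p = 2.3e-06). Gm26688, annotated antisense to Tfap2a, averaged 1.04 CPM in shAD4-1, 1.53 CPM in shAD4-2 and 0.908 CPM in shControl. Tfap2a itself averaged 37.9 CPM in shAD4-1, 40 CPM in shAD4-2 and 29.2 CPM in shControl. The sources used here do not give whether counting used strand, and reads of overlapping genes cannot be told apart.

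Mitf, the central factor of the list, was lower with shAD4-1 and gave no called difference with shAD4-2. The shAD4-1 libraries had 9.67, 9.48 and 9.54 FPKM, the shAD4-2 libraries 12.1, 11.3 and 12 FPKM, and the shControl libraries 16.6, 12.1 and 11.4 FPKM. All shAD4-1 libraries lay below all others, whereas the shAD4-2 libraries overlapped shControl replicates 2 and 3. Control replicate 1 was 1.41 times the mean of the other controls for Mitf, and between 0.837 and 1.09 times for the other 7 tested genes. With shAD4-1 Mitf fell 1.34-fold (log2 fold change -0.42 ± 0.09, edgeR adjusted p = 0.000397), and without control replicate 1 the difference was -0.24 ± 0.04 (edgeR adjusted p = 1.46e-05). With shAD4-2 the difference was -0.12 ± 0.09 (edgeR adjusted p = 0.217). Without control replicate 1 it turned to 0.07 ± 0.04 (edgeR adjusted p = 0.165), and without control replicate 3 it was -0.22 and called (edgeR adjusted p = 0.0186). With all libraries but no filter on low counts, the difference of -0.12 ± 0.05 was also called (edgeR adjusted p = 0.0263). The fold against shControl therefore rests in part on 1 library, and the counts do not separate the Mitf start sites, so the level of the melanocyte form alone was not analysed here.

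Tfe3 and Tfeb, the MiT/TFE factors whose entry into the nucleus is held back by mTORC1 at the lysosome, were lower with both hairpins. Tfe3 was at 18.3, 19.2 and 19.2 FPKM in shAD4-1, at 17.4, 19.1 and 17.4 FPKM in shAD4-2, and at 23.9, 26.9 and 26.4 FPKM in shControl. Tfeb was much lower in level, at 1.57, 1.91 and 1.72 FPKM in shAD4-1, 1.51, 1.63 and 1.56 FPKM in shAD4-2, and 2.12, 2.58 and 2.48 FPKM in shControl. For both genes the hairpin groups overlapped each other and lay wholly below shControl. Tfe3 fell 1.31-fold with shAD4-1 (log2 fold change -0.39 ± 0.05, edgeR adjusted p = 3.7e-06) and 1.38-fold with shAD4-2 (-0.46 ± 0.05, edgeR adjusted p = 3.58e-07). Tfeb fell 1.33-fold with shAD4-1 (-0.41 ± 0.09, edgeR adjusted p = 0.000925) and 1.47-fold with shAD4-2 (-0.56 ± 0.10, edgeR adjusted p = 4.68e-05). The fourth family gene, Tfec, had 1 read in all 9 libraries, in shControl.

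Summed over the family, MiT/TFE transcripts averaged 30.2 ± 0.563 FPKM in shAD4-1, 31.3 ± 0.629 FPKM in shAD4-2 and 41.5 ± 1.19 FPKM in shControl (SD, n = 3 each). On this scale Tfe3 held 62.6% of the sum in shAD4-1, 57.4% in shAD4-2 and 62.1% in shControl. That order rests on the gene lengths behind the FPKM: in reads, Mitf had more than Tfe3 in every group, with 11208 against 8487 in shAD4-1, 12526 against 7301 in shAD4-2 and 14530 against 10845 in shControl. The share of Mitf in summed FPKM was 31.7% ± 0.911 in shAD4-1, 37.6% ± 2.12 in shAD4-2 and 32.1% ± 5.91 in shControl. Per library it was 32.7, 31 and 31.3% in shAD4-1, 39, 35.2 and 38.7% in shAD4-2, and 38.9, 29.2 and 28.3% in shControl. The hairpin groups did not overlap in this share, and control replicate 1 lay within the range of the shAD4-2 libraries. In the exact two-sided permutation test over libraries, p was 1 for shAD4-1 and 0.3 for shAD4-2 against shControl. Between the hairpins p was 0.1, the smallest that 3 against 3 allows.

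**Figure D2:**
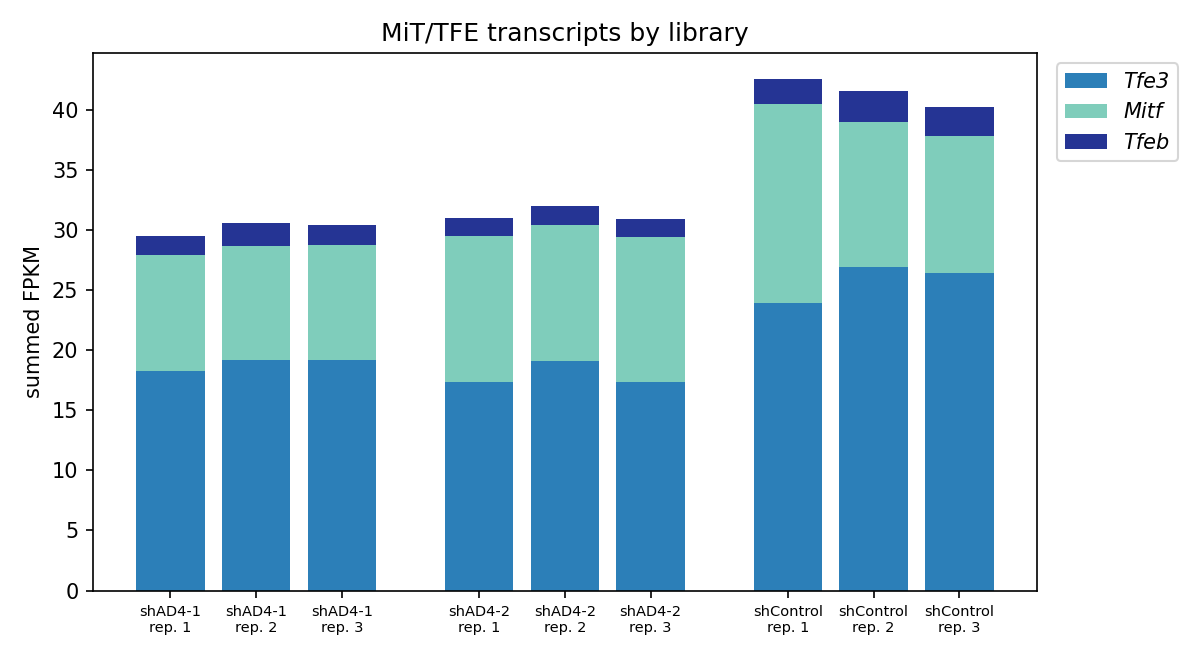
Summed FPKM of the MiT/TFE genes in each library, stacked by gene, with Tfe3 at the bottom, Mitf in the middle and Tfeb on top. The shControl bars reach 40.3 to 42.6 FPKM and the bars of the hairpin libraries 29.6 to 32 FPKM, and the Mitf block is tallest in shControl replicate 1.

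The receptor Mc1r, which sets the balance of black and yellow pigment, had the largest difference of the group. Mc1r was at 12.7, 13.1 and 12.8 FPKM in shAD4-1, at 15.1, 13.7 and 13.3 FPKM in shAD4-2, and at 40.1, 39.4 and 38.2 FPKM in shControl. All 6 hairpin libraries lay far below all control libraries. It fell 2.92-fold with shAD4-1 (log2 fold change -1.55 ± 0.05, edgeR adjusted p = 7.2e-15) and 2.68-fold with shAD4-2 (-1.42 ± 0.05, edgeR adjusted p = 2.11e-14). Mc1r is overlapped on its strand by Gm20388 in the GENCODE M21 annotation, a gene with no row in the tables used here. Relative to Sox10, Mc1r averaged 0.114 in shAD4-1, 0.112 in shAD4-2 and 0.287 in shControl as a ratio of FPKM.

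Erbb3, the neuregulin receptor of neural crest cells, was at 11.3, 11.5 and 10.9 FPKM in shAD4-1, at 14.4, 13.7 and 12.8 FPKM in shAD4-2, and at 22.6, 22.5 and 20.9 FPKM in shControl. The 3 groups were fully separate, with shAD4-1 lowest. Erbb3 fell 1.88-fold with shAD4-1 (log2 fold change -0.91 ± 0.05, edgeR adjusted p = 1.46e-11) and 1.55-fold with shAD4-2 (-0.63 ± 0.05, edgeR adjusted p = 1.91e-09). Its partner Erbb2, the ligandless kinase, averaged 4.46 FPKM in shAD4-1, 4.7 FPKM in shAD4-2 and 4.42 FPKM in shControl, and was called with neither hairpin (edgeR adjusted p = 0.349 and 0.0682). Erbb2 is overlapped on the opposite strand by Mien1, at 25.2 CPM in shAD4-1, 28.2 CPM in shAD4-2 and 41.7 CPM in shControl, beside 22.6, 23.8 and 21.5 CPM for Erbb2 in these groups, so shared reads may enter the Erbb2 values.

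Kit and Ednrb were nearly absent from these B16 libraries. Kit, the receptor of stem cell factor, had 5, 2 and 1 reads in shAD4-1, 8, 2 and 10 reads in shAD4-2, and 3, 0 and 1 reads in shControl. The sums were 8 reads in shAD4-1, 20 in shAD4-2 and 4 in shControl, and all groups overlapped library by library. Scaled to library totals, Kit was 5.16 times as high in shAD4-2 as in shControl (95% counting interval 1.73 to 20.8) and 1.87 times in shAD4-1 (0.502 to 8.5). An edgeR fit with no filter gave adjusted p = 0.068 for shAD4-2 and 0.573 for shAD4-1 against shControl. Ednrb, the endothelin receptor of melanoblasts, had 0, 2 and 1 reads in shAD4-1 and 0 in all 6 other libraries. A count of 0 allows up to 3 reads, or 0.0143 to 0.0168 FPKM of Ednrb per library, so a difference was not detectable at this depth. Intervals and limits cover counting error only.

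Of 19 listed ligands, processing enzymes and partners of these receptors, 12 had a row and 8 were tested. With each hairpin 3 were higher and 3 lower. That was 75% called with each, where 65% of all tested genes were called with shAD4-1 and 69% with shAD4-2. Kitl, the gene of stem cell factor and so the ligand of Kit, had 37, 52 and 37 reads in shAD4-1, 24, 13 and 24 in shAD4-2, and 7, 7 and 2 in shControl. All hairpin libraries exceeded all controls, at levels that stayed at or under 0.251 FPKM. Kitl rose 7.5-fold with shAD4-1 (log2 fold change 2.91 ± 0.46, edgeR adjusted p = 2.18e-05) and 3.99-fold with shAD4-2 (2.00 ± 0.50, edgeR adjusted p = 0.00158). Ece1, which cleaves the precursors of endothelins, rose 2.69-fold with shAD4-1 and 2.18-fold with shAD4-2 (edgeR adjusted p = 1.82e-08 and 4.6e-07). Nrg2, a neuregulin, rose 1.97-fold with shAD4-1 and 2.63-fold with shAD4-2 at 0.166 and 0.222 FPKM, against 0.0874 FPKM in shControl (edgeR adjusted p = 0.000545 and 1.01e-05). Atrn, the attractin gene needed for agouti to act on MC1R in mice, fell by 0.39 with shAD4-1 and by 0.55 with shAD4-2 on the log2 scale (edgeR adjusted p = 7.25e-08 and 6.07e-10).

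**Figure D3:**
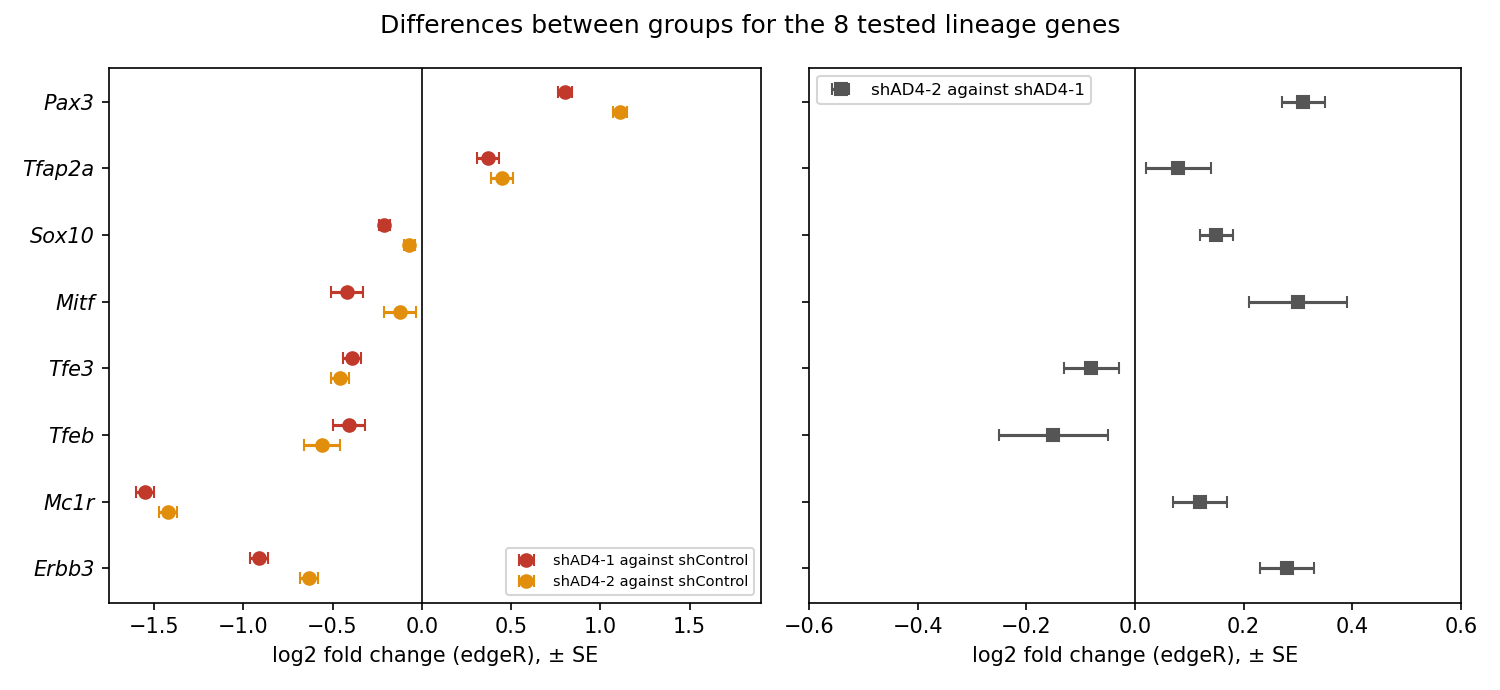
Log2 fold changes with SE from edgeR for the 8 tested lineage genes, on the left each hairpin against shControl and on the right shAD4-2 against shAD4-1, with a line at no difference. Pax3 (0.80 and 1.11) and Mc1r (-1.55 and -1.42) mark the ends on the left, and on the right Pax3, Sox10, Mitf and Erbb3 lie to the high side at 0.15 to 0.31.

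The lines carrying different hairpins differed from each other for 4 of the 8 tested lineage genes, all higher in shAD4-2, where 27.4% of all tested genes were called, 13.4% higher and 14% lower. These are differences between a pair of derivative lines. Pax3 was 1.24-fold higher in shAD4-2 than in shAD4-1 (log2 fold change 0.31 ± 0.04, edgeR adjusted p = 2.36e-05), Erbb3 1.22-fold (0.28 ± 0.05, edgeR adjusted p = 0.000423) and Sox10 1.11-fold (0.15 ± 0.03, edgeR adjusted p = 0.00417). Mitf was 1.23-fold higher (0.30 ± 0.09, edgeR adjusted p = 0.0185), a call that was lost with DESeq2 (adjusted p = 0.0918), with limma (adjusted p 0.0624 to 0.195), and without any of 5 single hairpin libraries (edgeR adjusted p 0.0505 to 0.0743). Without control replicate 1, whose spread enters the fit, the same Mitf difference had an edgeR adjusted p of 4.42e-07. The log2 difference for Mc1r was 0.12 (95% interval 0.02 to 0.22, edgeR adjusted p = 0.0808), for Tfap2a 0.08 (-0.04 to 0.19), for Tfe3 -0.08 (-0.18 to 0.03) and for Tfeb -0.15 (-0.34 to 0.04). None of these passed the threshold, though the Mc1r libraries of the lines did not overlap and Mc1r was called without control replicate 1 (edgeR adjusted p = 0.0382) or without shAD4-2 replicate 3 (edgeR adjusted p = 0.0337).

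Ordered by FPKM, the genes in shAD4-1 and shAD4-2 ran Sox10, Pax3, Tfe3, Mc1r, Erbb3, Mitf, Tfap2a, Tfeb, Kit and Ednrb. In shControl the order was Sox10, Mc1r, Pax3, Tfe3, Erbb3, Mitf, Tfap2a, Tfeb, Kit and Ednrb, so Mc1r held the second place there and the fourth in the hairpin lines. Neighbours overlapped between libraries only for Mc1r and Erbb3 in shAD4-2 and for Kit and Ednrb in shAD4-1 and shControl. Among tested genes, Mc1r exceeded 65.4% in shAD4-1, 67.2% in shAD4-2 and 87% in shControl. Sox10 exceeded 96.2% in shAD4-1, 96.6% in shAD4-2 and 96.8% in shControl. The ratio of Pax3 to Mitf was 5.85 ± 0.161 in shAD4-1, 5.9 ± 0.229 in shAD4-2 and 2.55 ± 0.367 in shControl (FPKM, SD, n = 3 each).

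Over the 9 libraries, the gene whose log2 CPM followed Mitf most closely among 10052 searched was Gjc3, with Pearson r = 0.992, then Eogt and Syt4. Gjc3 was also raised in control replicate 1, at 69.9 FPKM against 47 and 44.4 FPKM in the other controls. The nearest to Pax3 were Kntc1, Eif3l and Lrrc59, to Mc1r Tuba1a, Katnal1 and Ddx24, to Erbb3 Tgds, Slc36a1 and Polk, and to Sox10 Pxn, Chd8 and Ndufa8. For Tfap2a they were Slc7a6os, Patz1 and Tpd52l2, for Tfe3 Osgep, Afmid and Klhl25, and for Tfeb Dpcd, Osgep and Sema6b. All had r of at least 0.979, but the libraries fall into 3 groups and 1182 genes reached r of 0.95 with Pax3 against 8 with Mitf, so these names are a description only.

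Paralogs of the lineage genes were mostly low, with 7 of 16 that had a row tested and 2 higher and 0 lower with each hairpin. That was 28.6% called with each, below the share over all tested genes of 65% with shAD4-1 and 69% with shAD4-2. Tfap2b, a paralog of Tfap2a, rose 3.52-fold with shAD4-1 and 4.56-fold with shAD4-2 with 59 reads over the shAD4-1, 70 over the shAD4-2 and 16 over the shControl libraries (edgeR adjusted p = 0.00267 and 0.000408). Sox6, a factor of the SoxD group, was at 3.38 FPKM in shAD4-1, 3.73 FPKM in shAD4-2 and 3.33 FPKM in shControl, and was called higher with shAD4-2 (log2 fold change 0.22 ± 0.05, edgeR adjusted p = 0.000813). Pdgfrb, a receptor of the Kit family, was called higher with shAD4-1 (0.27 ± 0.06, edgeR adjusted p = 0.000858).

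Of 23 tested regulators and cofactors of MITF, 9 were higher and 4 lower with shAD4-1, and 8 were higher and 5 lower with shAD4-2. That was 56.5% called with each hairpin, beside 65% (shAD4-1) and 69% (shAD4-2) over all tested genes. These regulators had a median of 0.10 (shAD4-1) and 0.12 (shAD4-2) on the log2 scale, beside -0.01 over all tested genes in each comparison. Crtc1, a CREB coactivator on the cAMP route to the Mitf CRE, rose 1.59-fold with shAD4-1 and 1.64-fold with shAD4-2 (edgeR adjusted p = 3.98e-07 and 1.63e-07). The acetyltransferase gene Ep300, a MITF cofactor, rose 1.34-fold with shAD4-1 and 1.45-fold with shAD4-2 (edgeR adjusted p = 3.87e-08 and 1.65e-09). Bhlhe40, a repressor of the Mitf gene, fell 1.7-fold with shAD4-1 and 1.67-fold with shAD4-2 (edgeR adjusted p = 2.35e-07 and 3.31e-07).

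Genes reported as MITF targets differed in both directions. Of 21 tested, 5 were higher and 14 lower with shAD4-1, with a median log2 fold change of -0.28. With shAD4-2, 11 were higher and 7 lower, with a median of 0.19. Called were 90.5% with shAD4-1 and 85.7% with shAD4-2. Over all tested genes 65% were called with shAD4-1 (32.7% higher, 32.3% lower) and 69% with shAD4-2 (34.2% higher, 34.8% lower). The median over all tested genes was -0.01 in each comparison. Between the lines, 8 were higher and 4 lower in shAD4-2 than in shAD4-1, with a median of 0.08, where 27.4% of all tested genes were called, 13.4% higher and 14% lower. Trpm1, a melanocyte cation channel, was at 2.7, 2.72 and 2.56 FPKM in shAD4-1, 2.16, 2.08 and 2.08 FPKM in shAD4-2, and 6.75, 5.72 and 6.07 FPKM in shControl. It fell 2.23-fold with shAD4-1 and 2.82-fold with shAD4-2 (edgeR adjusted p = 9.86e-12 and 3.3e-13). Met, the hepatocyte growth factor receptor, fell 1.27-fold with shAD4-1 and 1.63-fold with shAD4-2 (edgeR adjusted p = 6.48e-07 and 3.18e-11). The survival gene Bcl2 rose 1.75-fold with shAD4-1 and 1.44-fold with shAD4-2 (edgeR adjusted p = 1.42e-11 and 4.56e-09). Ppargc1a, the mitochondrial coactivator PGC-1α, rose 2.68-fold with shAD4-1 and 2.75-fold with shAD4-2 (edgeR adjusted p = 2.18e-15 and 1.39e-15).

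Some MITF targets were called in opposite directions with the hairpins, and these were chosen after their values were seen: Oca2, Mlph, Pmel, Cdk2 and Mlana. The share of all tested genes called in opposite directions is not given here, so the pattern is not shown to be particular to MITF targets. Oca2, a melanosomal anion channel, was at 0.528, 0.584 and 0.477 FPKM in shAD4-1, at 3.42, 2.77 and 3.23 FPKM in shAD4-2, and at 1.45, 1.16 and 1.1 FPKM in shControl. The 3 groups were far apart, with shControl in the middle. Oca2 was 2.23-fold lower with shAD4-1 (edgeR adjusted p = 6.54e-06), 2.65-fold higher with shAD4-2 (edgeR adjusted p = 6.02e-08) and 5.92-fold higher in shAD4-2 than in shAD4-1 (edgeR adjusted p = 4.94e-09). Pmel, the fibril protein of the melanosome, differed by -0.26 with shAD4-1 and 0.46 with shAD4-2 on the log2 scale (edgeR adjusted p = 0.00158 and 3.74e-06). The gene of melanophilin, Mlph, differed by -0.43 with shAD4-1 and 0.38 with shAD4-2 (edgeR adjusted p = 7.59e-06 and 2.13e-05). Cdk2 overlaps Pmel on the opposite strand, so their reads may be shared.

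**Figure D4:**
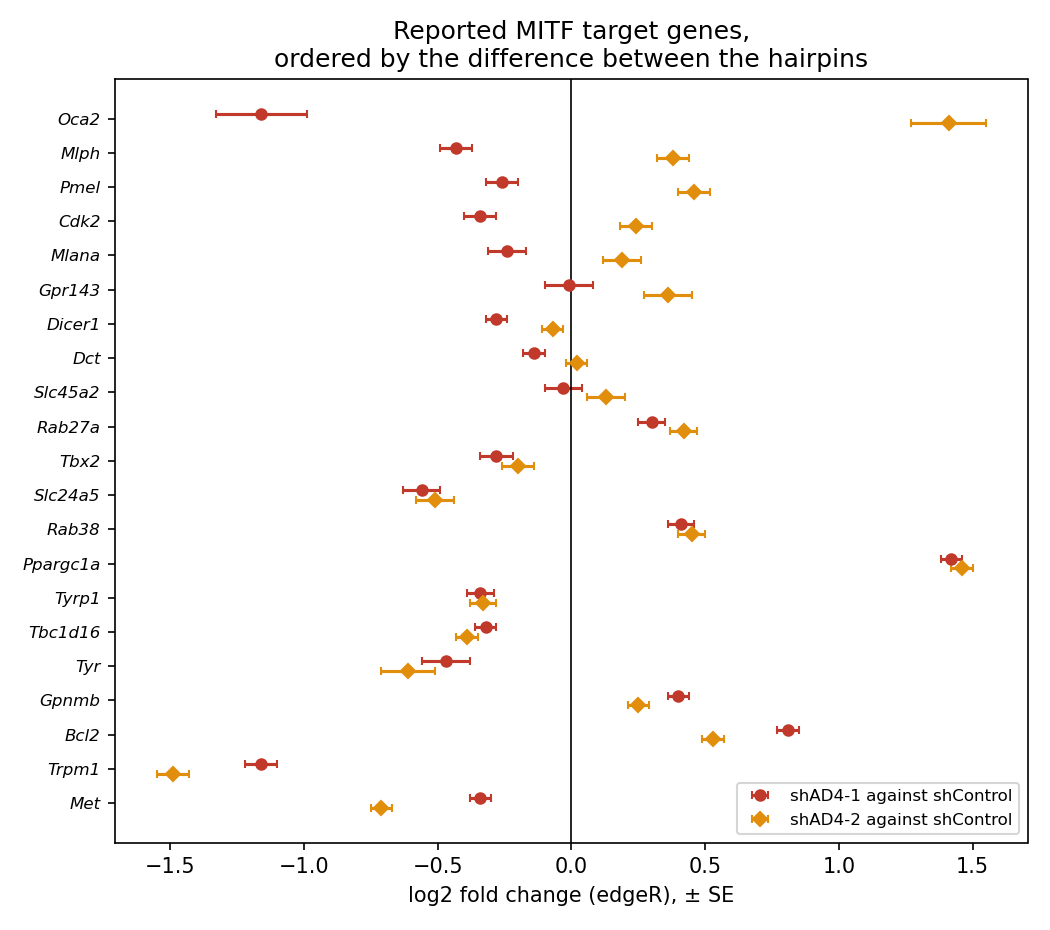
Log2 fold changes with SE from edgeR for the 21 tested genes reported as MITF targets, shAD4-1 (circles) and shAD4-2 (diamonds) against shControl, ordered by the difference between the hairpins. Oca2, at the top, lies at -1.16 for shAD4-1 and 1.41 for shAD4-2, while Trpm1 (-1.16 and -1.49) and Ppargc1a (1.42 and 1.46) lie on the same side for both.

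Control replicate 1, which was high for Mitf, was also above the mean of the other controls for 17 of these 21 targets. The ratio ran between 0.916 and 1.38 with a median of 1.17 in CPM, beside a median of 0.993 over all tested genes. Without that library, 6 of the 21 were higher and 14 lower with shAD4-1, and 12 were higher and 7 lower with shAD4-2. The share called over all tested genes in that fit is not given here. Tyr, the tyrosinase gene, differed by -0.47 with shAD4-1 on the log2 scale, and by -0.29 without that library. Likewise Pmel differed by -0.15 and Mlana by -0.10 with shAD4-1 without that library, beside -0.26 for Pmel and -0.24 for Mlana with it, and both stayed past the threshold (edgeR adjusted p = 0.00151 and 0.0128).

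Of 6 tested genes reported as SOX10 targets, 0 were higher and 4 lower with shAD4-1, and 1 was higher and 3 lower with shAD4-2. That was 66.7% called with each hairpin, near the share over all tested genes of 65% with shAD4-1 and 69% with shAD4-2. Mbp, a myelin protein gene, was at 14.6, 14.7 and 14.5 FPKM in shAD4-1, at 2.14, 2.42 and 2.48 FPKM in shAD4-2, and at 56.5, 55.4 and 56 FPKM in shControl. It fell 3.67-fold with shAD4-1 and 23-fold with shAD4-2 (edgeR adjusted p = 4.04e-17 and 1.73e-21). Mbp is itself one of the Schwann cell markers, at 126 CPM in shAD4-1, 20.1 CPM in shAD4-2 and 462 CPM in shControl. The lower sum of those markers with the hairpins thus includes the fall of Mbp. A change in cells of that type was not tested. Tyr fell 1.38-fold with shAD4-1 and 1.53-fold with shAD4-2 (edgeR adjusted p = 0.000274 and 1.68e-05). Dct, the dopachrome tautomerase gene, was called lower with shAD4-1 (log2 fold change -0.14 ± 0.04, edgeR adjusted p = 0.00942), and with shAD4-2 the value was 0.02 ± 0.04 (edgeR adjusted p = 0.698).

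Lysosome and autophagy genes reported as TFEB and TFE3 targets moved both ways. With shAD4-1, 12 of 32 tested were higher and 14 lower, and with shAD4-2, 11 were higher and 14 lower. Called were 81.2% with shAD4-1 and 78.1% with shAD4-2, beside 65% and 69% over all tested genes. The lysosomal list had a median of 0.00 (shAD4-1) and -0.02 (shAD4-2) on the log2 scale, beside -0.01 over all tested genes. Hexa, a β-hexosaminidase subunit, fell to 84.2, 79.5 and 80.2 FPKM in shAD4-1 and to 86.3, 86 and 84.5 FPKM in shAD4-2, against 190, 199 and 200 FPKM in shControl (edgeR adjusted p = 4.83e-15 and 1.08e-14). Sqstm1, the autophagy receptor p62, rose 2.02-fold with shAD4-1 and 2.07-fold with shAD4-2 (edgeR adjusted p = 9.03e-14 and 4.76e-14). The proton pump subunit Atp6v0d1 fell 1.9-fold with shAD4-1 and 1.62-fold with shAD4-2 (edgeR adjusted p = 2.56e-11 and 1.09e-09). Ppargc1a, on this list as well, is given above.

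Among 22 regulators of where TFE3 and TFEB reside in the cell, 8 were higher and 7 lower with shAD4-1. With shAD4-2, 7 were higher and 7 lower. That was 68.2% called with shAD4-1 and 63.6% with shAD4-2, near the share over all tested genes of 65% and 69%. Flcn, the folliculin that lets mTORC1 phosphorylate TFEB and TFE3, fell 1.64-fold with shAD4-1 and 1.51-fold with shAD4-2 (edgeR adjusted p = 7.6e-10 and 8.81e-09). Rraga, a Rag GTPase of the same lysosomal complex, fell 1.65-fold with shAD4-1 and 1.99-fold with shAD4-2 (edgeR adjusted p = 3.8e-11 and 4.18e-13). Tsc2, an inhibitor of mTORC1, rose 1.72-fold with shAD4-1 and 1.99-fold with shAD4-2 (edgeR adjusted p = 3.82e-10 and 1.1e-11), and it borders Pkd1 on the opposite strand with an overlap. Ppp3ca, the calcineurin subunit that dephosphorylates TFEB, rose 1.62-fold with shAD4-1 and 1.46-fold with shAD4-2 (edgeR adjusted p = 1.17e-09 and 2.8e-08). The counts show transcripts, and the location of TFE3 and TFEB was not measured.

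Of 9 tested genes reported as high in melanomas with little MITF, 5 were higher and 0 lower with shAD4-1. With shAD4-2, 4 were higher and 0 lower. That was 55.6% called with shAD4-1 and 44.4% with shAD4-2, below the 65% and 69% over all tested genes. Called higher over all tested genes were 32.7% with shAD4-1 and 34.2% with shAD4-2. The list had a median of 0.29 with shAD4-1 and 0.32 with shAD4-2, beside -0.01 over all tested genes. The receptor kinase gene Axl rose 1.48-fold with shAD4-1 and 1.49-fold with shAD4-2 (edgeR adjusted p = 1.36e-07 and 8.24e-08). Ngfr, the neural crest receptor p75, rose 1.89-fold with shAD4-1 and 2.14-fold with shAD4-2 (edgeR adjusted p = 2.35e-07 and 1.86e-08). Fn1, the fibronectin gene, rose 2.57-fold with shAD4-1 and 2.09-fold with shAD4-2 (edgeR adjusted p = 2.21e-12 and 5.37e-11). Fibroblast markers summed to 10.4 to 12.2 CPM in shAD4-1, 12.4 to 14 CPM in shAD4-2 and 5.14 to 7.21 CPM in shControl, and their part was not tested. The counts of every list stand beside the 65% and 69% called over all tested genes and describe named genes, with no test of a list.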

How the data were processed

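RNA-seq libraries of 9 B16 cultures in 3 groups were prepared with the VAHTS Universal V6 kit, per the labels' protocols. The submitters' processing notes name fastp, HISAT2 and HTSeq and build GRCm39, without versions. The authors deposited whole-number read counts per gene and FPKM values for the same genes; the deposited FPKM use the column sum of the counts as library size. Columns named for the first and second knockdown were matched to shAD4-1 and shAD4-2 by number.

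Counts were tested with edgeR 4.0.16 in R 4.3.3: filterByExpr (13807 genes, 99.968% of reads), TMM scaling, one dispersion fit over all 9 libraries, quasi-likelihood tests of each pair of groups, and Benjamini-Hochberg adjustment over all tested genes. The steps were tested on simulated data in which few genes changed, so not under changes as widespread as those seen here. CPM are TMM-scaled; FPKM and the Kit ratios are not. Shares within the MiT/TFE family were compared with exact permutation tests.

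The genes and lists were chosen with earlier results of these data known. Named genes are all 10 lineage genes, up to 4 members of each list with the smallest adjusted p against control, and the 3 genes closest to each lineage gene in log2 CPM (prior count 2, mean of at least 5 CPM). A few list members that meet this rule are left out of the text. Alternatives were other scalings and filters, DESeq2 1.42.0, limma 3.58.1 on log2(FPKM + 1) and log2(FPKM + 0.1), 2-group fits, a replicate block and leaving out each library. Promoters came from RefSeq GRCm38.p6 and overlaps from GENCODE M21.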

Additional observations from a re-analysis of the deposited data

Results flagged for a closer look

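The direct comparison of the hairpin lines picked out 4 lineage genes whose effect against the same control differed between shAD4-2 and shAD4-1. The log2 difference, shAD4-2 minus shAD4-1, was 0.31 for Pax3, 0.30 for Mitf, 0.28 for Erbb3 and 0.15 for Sox10, each past an edgeR adjusted p of 0.05, where 27.4% of all tested genes were called. The calls of Pax3, Erbb3 and Sox10 held under all 19 alternatives, while that of Mitf was lost in 9 of them. Pax3 lies farther from control in shAD4-2, at 69.4 FPKM, than in shAD4-1, at 55.9 FPKM, beside 33.4 FPKM in shControl. Erbb3, Sox10 and Mitf lie nearer to control in shAD4-2. Each hairpin is represented by a single line, so hairpin and line cannot be told apart.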

How the results depend on the processing

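Each tested lineage gene was recomputed under 19 alternatives per comparison, 456 values in all, of which 438 kept direction and side of the threshold, 9 lost the call, 8 gained one and 1 reversed. The reversal was Mitf in shAD4-2 against shControl, which ran from -0.22 to 0.07 as single libraries were left out and reached 0.07 without control replicate 1. Lineage genes called numbered 8 with shAD4-1 under every alternative, 6 or 7 with shAD4-2 and 3 to 5 between the lines. The calls lost were all of Mitf between the lines, and those gained were of Mitf and Sox10 with shAD4-2 and of Mc1r between the lines. Leaving out a library gave share differences against shControl for shAD4-1 of -2.38 to 2.95 percentage points for Mitf, -2.51 to 2.23 for Tfe3 and -0.438 to 0.176 for Tfeb, so their signs, which no test called, are not fixed; the cause was not tested. Among the lists, called paralogs numbered 1 with each hairpin at a minimum of 1 CPM in 3 libraries, and called ligands and partners numbered 3 with shAD4-1 under limma on FPKM, where fewer genes were tested.

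Replicate numbers did not pair the libraries: 9 same-number pairs had correlations of deviations between -0.133 and 0.025. With the replicate block 8, 6 and 4 lineage genes were called for shAD4-1, for shAD4-2 and between the lines. Kit and Ednrb are limited by depth, and every p by 3 libraries a group.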
